A study of Mus musculus with 6 samples.

Results

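Interferon-gamma (Ifng), its ligand-binding receptor chain (Ifngr1) and 8 interferon-inducible GTPases (Gbp2, Gbp3, Gbp5, Gbp6, Igtp, Irgm1, Irgm2 and Iigp1) were followed in sorted macrophages of the mouse omentum and mesentery. The 10 genes were chosen by name, with earlier results of these data known. All 10 were found among the 23946 genes of the deposited expression table. All 10 were also among the 13064 genes whose FPKM reached 1 in any of the libraries. FPKM is the number of fragments per kilobase of transcript and per 1000000 mapped fragments, so levels of different genes can be set side by side per unit of length.

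RNA was sequenced from 6 libraries of female C57BL/6 mice, taken from omentum (OM) or mesentery (MY) of naive, uninjected animals, or at 24 h or 7 d after injection of ID8 cells. ID8 is a mouse ovarian carcinoma line derived from C57BL/6 mice, which was placed in the peritoneal cavity in this model. No group carried a transgene or deletion, and every group was sorted for CD45, CD11b and F4/80 on the cell surface. The study describes pools of 3 omenta, and the pool size for the mesentery is not stated. The table and the labels give 1 column and 1 sample for each tissue and time, so no value has a replicate error and no difference was tested. The study's reporting summary speaks of several pools, and whether a column combines more than 1 pool is not given in the sources used here.

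Interferon-gamma is secreted mainly by natural killer (NK) cells, innate lymphoid cells and T cells, and macrophages are a classical target. It binds a receptor built of IFNGR1 and IFNGR2 chains that signals through the kinases JAK1 and JAK2. Genes of this response often carry gamma-activated sites (GAS) or interferon-stimulated response elements (ISRE) near their start, and the induced factor IRF1 binds the latter. Guanylate-binding proteins (GBPs) and immunity-related GTPases (IRGs) are among the most strongly inducible products of this pathway, and they assemble on vacuoles that hold intracellular pathogens. Among the IRGs, Igtp, Irgm1 and Irgm2 belong to the regulatory class that protects the cell's own membranes, and Iigp1 is an effector that attacks the vacuole.

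In mm9 (NCBIM37, GENCODE M1), Ifng is a gene of 4 exons at chr10:117878103-117882948 on the plus strand, and Ifngr1 has 7 exons at chr10:19311755-19330035. Gbp5 (chr3:142159864-142185308), Gbp3 (chr3:142223016-142236173) and Gbp2 (chr3:142283566-142300972) follow each other on the plus strand of chromosome 3. Gbp6 lies on the minus strand at chr5:105699723-105722718. Igtp (chr11:58013058-58021093) and Irgm2 (chr11:58028530-58036282) are neighbours on the plus strand of chromosome 11, and Irgm1 is on the minus strand of the same chromosome at chr11:48675470-48685185. No gene of the annotation overlapped these 9 genes.

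Promoter sequences are shown because the GTPases are targets of this pathway, and their levels are compared later. RefSeq windows were found for 8 of the 10 genes, not for Gbp6 or Iigp1, and 9 windows (2 for Gbp3) matched mm9 exactly. The 250 bases before each RefSeq start were searched on both strands for an ISRE, spelled GAAANNGAAA, and a GAS, spelled TTCNNNGAA. An ISRE match was present in 6 of 6 listed GTPases with a window, and in 2.98% of the 32851 windows of the whole RefSeq set. A GAS match was present in 3 of the 6 (Gbp5, Igtp and Irgm2), against 7.02% of all windows. The units differ, since the GTPases were counted per gene, by a match in any window, and the whole set per window. Of the 2 Gbp3 windows, 1 held no match of either kind. Ifng held a GAS match and no ISRE match, and Ifngr1 held neither. In the sequences below, written 5′ to 3′ on the strand of the gene, capitals mark the ISRE and GAS matches. Gbp2 and Irgm1 are shown for 30 bases around the match only, since their GENCODE first exon begins before the RefSeq start.
Gbp2, chr3:142283558-142283587, plus strand: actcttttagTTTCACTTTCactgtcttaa
Gbp3, chr3:142222908-142223007, plus strand: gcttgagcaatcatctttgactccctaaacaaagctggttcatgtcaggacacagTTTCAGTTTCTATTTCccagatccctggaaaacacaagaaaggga
Gbp5, chr3:142159718-142159857, plus strand: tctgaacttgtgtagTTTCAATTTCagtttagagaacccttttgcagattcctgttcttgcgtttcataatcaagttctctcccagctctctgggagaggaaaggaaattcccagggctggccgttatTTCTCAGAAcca
Irgm1, chr11:48684931-48684960, minus strand: tgtttcaaGAAATAGAAACCGAAActgatt
Igtp, chr11:58012958-58013057, plus strand: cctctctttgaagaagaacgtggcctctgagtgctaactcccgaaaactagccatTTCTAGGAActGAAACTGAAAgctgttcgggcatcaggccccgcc
Irgm2, chr11:58028379-58028478, plus strand: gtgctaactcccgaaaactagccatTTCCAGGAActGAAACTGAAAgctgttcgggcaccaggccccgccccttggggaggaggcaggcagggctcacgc

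The first Gbp3 window and the Irgm1 window each held 2 overlapping ISRE matches. In the Igtp and Irgm2 windows a GAS match stood just before an ISRE match, and the longest run of identical bases between their whole windows was 55, which began further from the start than the stretches printed. Such matches describe letters in a window and do not show that a factor bound there. Among the other GTPases of the GBP and IRG families, 6 of 10 with a window held an ISRE match (Gbp2b, Gbp7, Tgtp1, Tgtp2, Gm12250 and Gm12185) and 5 held a GAS match. The map of these matches shows how close to the start they lay.

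**Figure D1:**
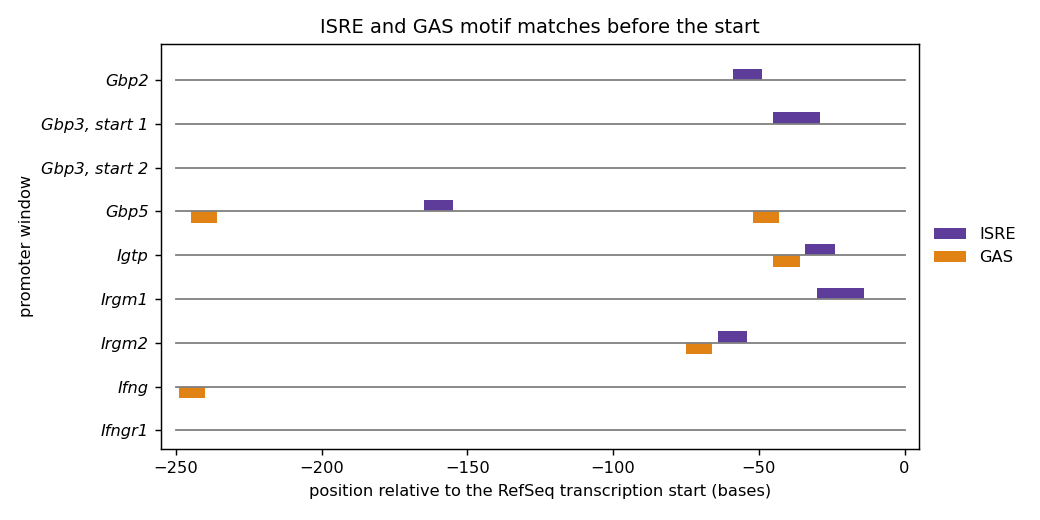
Positions of ISRE (purple) and GAS (orange) matches in the 250 bases before the RefSeq start, 1 line per window, with the start at 0 on the horizontal axis. In Gbp2, Gbp3 (first start), Igtp, Irgm1 and Irgm2 every ISRE match lies within 64 bases of the start, and in Gbp5 it begins 165 bases before it.

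The genes that encode the sort markers were detected in every library, with Ptprc (CD45) at an FPKM of 106 to 208, Itgam (CD11b) at 27.8 to 151 and Emr1 (F4/80) at 20.5 to 135. Markers of other cells were detected as well. The summed FPKM of 9 NK cell genes was 40.2 to 524 in omental and 1387 to 3019 in mesenteric libraries, and that of 9 T cell genes was 28.9 to 143 against 705 to 1472. Summed over 5 genes, B cell markers were at 904 to 3967 against 524 to 1539, and over 6 genes neutrophil markers were at 6917 to 18864 against 59.0 to 810. Fibroblast genes (6 genes) reached 222 to 1190 in the omentum and 2.08 to 3.10 in the mesentery, and mesothelial genes (4 genes) 60.8 to 703 against 0.0613 to 0.439. Monocyte (4 genes), dendritic cell (6 genes) and endothelial (4 genes) lists had summed FPKM of 355 to 2089, 132 to 341 and 9.60 to 46.3 over the 6 libraries. The MHC class II chaperone Cd74 was listed at 0 in the omental library at 24 h and at 11323 to 26905 in the others. An exact 0 beside such levels can be a failed estimate, so a 0 is given below only as listed, and a gene at 0 in either library is left out of the list counts. The total number of fragments is not in the files. Estimated from the smallest FPKM steps, the depth relative to the naive mesenteric library ranged from 0.742 in the naive omental library to 1.35 in the omental library at 7 d.

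Ifng, the ligand, was at an FPKM of 7.27 in the naive omental library, 0.0219 at 24 h and 5.05 at 7 d. In the mesentery it was at 10.2 in the naive library, 4.21 at 24 h and 3.92 at 7 d. The 24 h omental library was the lowest of the 6, and the naive library was the highest of its tissue in both tissues, while the ranges of the tissues overlapped.

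Differences below are given as log2(FPKM + 1) in the first library minus the second, and a gene is counted as higher or lower when this reached 2-fold. In the omentum at 24 h, Ifng fell by 3.02 against naive, and 6.45% of all 13064 genes were at least 2-fold lower in that comparison. From 24 h to 7 d Ifng rose by 2.56, and 7.03% of all genes were at least 2-fold higher in that step. The 7 d library differed from the naive one by -0.45. In the mesentery Ifng fell by 1.10 at 24 h and by 1.19 at 7 d, where 1.52% and 2.29% of all genes were at least 2-fold lower. From 24 h to 7 d the mesenteric difference was -0.09, and 3.54% of all genes were lower by at least 2-fold in that step. The falls in the mesentery did not reach 2-fold when 5 was added to each FPKM in place of 1 (-0.72 at 24 h and -0.77 at 7 d).

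The omental value at 24 h rested on about 1 fragment. From the smallest FPKM steps and a transcript of 1207 bases, Ifng had roughly 242, 1 and 306 fragments in the omental libraries in order of time, and 458, 228 and 200 in the mesenteric ones. The ratio of the naive omental to the 24 h omental level was 331, with a 95% interval of 52.4 to 11695 that covers counting error only. By counting error alone, the low level at 24 h was resolved from the naive level at this depth, but its exact size was not. Error between libraries and in the FPKM estimate itself is not covered.

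The marker genes of the cells known to secrete interferon-gamma differed between the same libraries. The NK cell list summed to 524, 40.2 and 306 FPKM in the omentum and to 3019, 1846 and 1387 in the mesentery, in order of time. The T cell list summed to 143, 28.9 and 137 in the omentum and to 1226, 705 and 1472 in the mesentery. Both lists were lowest at 24 h in the omentum, where Ifng was lowest, and both were higher in every mesenteric library than in any omental one, although Ifng was not. The shift at 24 h was not particular to these cells. In order of time the omental B cell list summed to 3967, 904 and 2447 FPKM, and the macrophage list to 1684, 9690 and 1028. All 5 B cell genes were at least 2-fold lower than naive at 24 h, and 8 of 9 macrophage genes were higher.

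At 24 h in the omentum, all 9 NK cell genes were lower than in the naive library, 8 of them by at least 2-fold (not Klrk1), and no gene of the list was at 0. Ncr1, an activating NK cell receptor, was at 26.2, 0.612 and 11.7 FPKM in the omental libraries and at 148, 72.9 and 54.4 in the mesenteric ones. Gzmb, a granzyme of cytotoxic granules, was at 17.4, 0.01996 and 13.8 FPKM in the omentum and at 142, 105 and 64.0 in the mesentery. Its omental value at 24 h was below the 0.0219 FPKM of Ifng there, which rested on about 1 fragment, so its size is likewise uncertain. Cd3e, a chain of the T cell receptor complex, was at 28.0, 3.98 and 28.4 FPKM in the omentum and at 237, 104 and 256 in the mesentery. The 3 genes were lowest at 24 h in the omentum, as Ifng was. Of the T cell list, 7 of 9 genes fell by at least 2-fold in the omentum at 24 h. Cd28 fell by less, and Cd4 did not fall, at 8.48, 8.79 and 8.77 FPKM in the omentum in order of time. In that comparison 6.45% of all genes were at least 2-fold lower. In the mesentery 2 of 9 NK cell genes fell at 24 h and 7 of 9 at 7 d, and 1 of 9 and 0 of 9 T cell genes did. By the same measure 1.52% and 2.29% of all genes fell there.

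Per 100 FPKM of the NK cell list, Ifng stood at 1.39, 0.0546 and 1.65 FPKM in the omentum and at 0.338, 0.228 and 0.282 in the mesentery. Per 100 FPKM of the T cell list, it stood at 5.08, 0.0758 and 3.68 in the omentum and at 0.831, 0.598 and 0.266 in the mesentery. The omental ratio at 24 h was the lowest of the 6 on either list, and rests on the same single fragment. In such bulk libraries, fewer cells of a type and less RNA per cell cannot be told apart, and the part of these cells in the Ifng values was not tested.

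**Figure D2:**
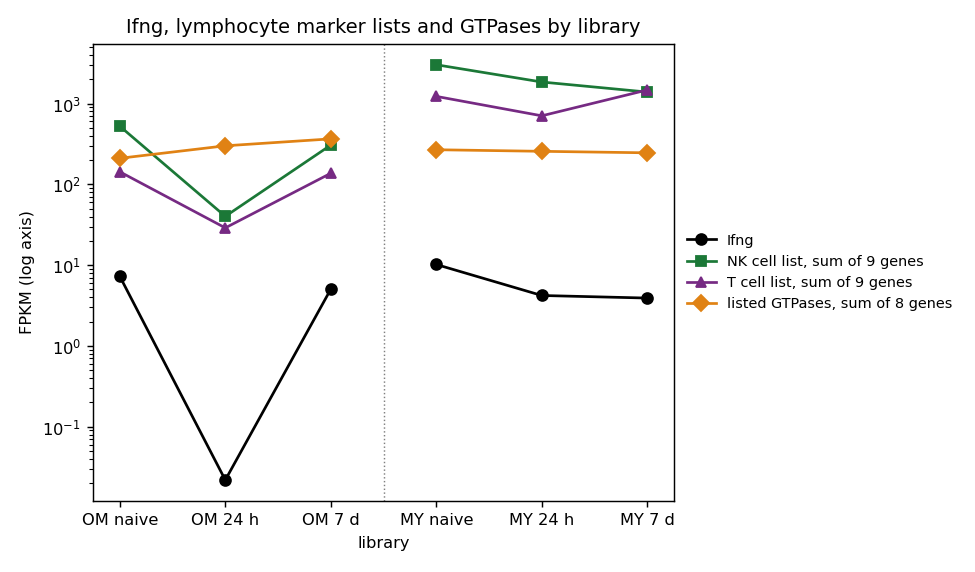
FPKM (log axis) of Ifng, of the summed NK cell and T cell lists (9 genes each) and of the 8 listed GTPases in each library, with lines joining the 3 times within a tissue. Ifng and both lymphocyte lists are lowest in the omental library at 24 h, while the GTPase sum goes from 210 in the naive to 300 in the 24 h omental library.

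The genes whose centred log2 profile over the 6 libraries lay closest to that of Ifng, among 6103 genes with at least a 2-fold range, were Lta, Gimap5, Gimap4, Pear1 and Rltpr, with root mean square differences of 0.28 to 0.39. Lta, which encodes lymphotoxin alpha, was at 19.4, 1.35 and 11.6 FPKM in the omentum and at 16.8, 10.4 and 13.8 in the mesentery. With each profile divided by its SD, 1 of these 5 genes (Pear1) stayed among the closest. The mean profile of the listed GTPases lay closest to Esr1, Cc2d2a, Ulk4, Aldh4a1 and Ldhd, with root mean square differences of 0.09 to 0.11. Of these, Aldh4a1 (8.22 to 17.5 FPKM) had the highest levels, and the others had at most 2.09 FPKM in any library.

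Ifngr1, the ligand-binding receptor chain, was abundant in every library, at 191, 289 and 159 FPKM in the omentum and at 188, 246 and 248 in the mesentery. It did not differ by 2-fold in any of the 9 comparisons, and the largest difference was -0.86 from 24 h to 7 d in the omentum. The tissue ranges overlapped. Ifngr2, the signalling chain, was at 54.5, 138 and 68.8 FPKM in the omentum and at 54.6, 67.8 and 62.2 in the mesentery. Its level at 24 h in the omentum was higher than naive by 1.33, and 11.9% of all genes were at least 2-fold higher in that comparison. None of the other 10 genes in the list of 11 receptor and signalling genes passed 2-fold in that comparison.

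At 7 d in the omentum, 2 of the 11 signalling genes were at least 2-fold higher than naive and none was lower, with a list median of 0.33, where 11.0% of all genes were higher and 1.96% lower. Irf1, the transcription factor that carries the signal to many targets, was at 87.2, 88.5 and 176 FPKM in the omentum and at 229, 337 and 227 in the mesentery. Socs3, a feedback inhibitor of cytokine receptors, was at 112, 212 and 257 FPKM in the omentum and at 39.1, 35.7 and 54.4 in the mesentery. Irf1 was higher in each mesenteric library than in any omental one, and Socs3 was lower in each. In the mesentery 0 of the 11 genes passed 2-fold in either direction at 24 h or 7 d. Of all genes, 2.80% and 0.498% were higher there and 1.52% and 2.29% lower, at 24 h and 7 d.

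The remaining called genes of this list differed between tissues or between 24 h and 7 d. Jak1 was at 118, 62.4 and 81.9 FPKM in the omentum and at 150, 141 and 184 in the mesentery. Jak2 was at 31.2, 18.5 and 39.5 FPKM in the omentum and at 56.96, 85.8 and 61.8 in the mesentery. Both receptor kinases were lowest at 24 h in the omentum and lower in all omental than in all mesenteric libraries. Socs1, the inhibitor of the kinases, was at 52.4, 45.4 and 94.2 FPKM in the omentum and at 109, 92.9 and 83.01 in the mesentery. Its highest level was in the naive mesentery and its lowest at 24 h in the omentum, and the tissue ranges overlapped.

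The 8 GTPases summed to 210 FPKM in the naive omental library, 300 at 24 h and 365 at 7 d, and to 268, 256 and 245 in the mesentery. The mean of their log2(FPKM + 1) was 3.92, 4.57 and 5.05 in the omentum and 4.60, 4.49 and 4.46 in the mesentery. The omentum therefore held both the lowest and the highest values, and the mesenteric values lay between. At 24 h, when Ifng was close to 0 in the omentum, the omental GTPase sum was above the naive one. The omental macrophage list was also above naive at 24 h, at 1684, 9690 and 1028 FPKM in order of time. The NK cell, T cell and B cell lists were lowest at 24 h there, and the part of this shift in the GTPase values was not tested. Among the marker lists, only the neutrophil and mesothelial ones had the same order as the GTPase sum in the omentum. Not every gene of these lists followed it, as Mpo (84.0, 8.49 and 117 FPKM), Cxcr2 (5.14, 14.0 and 3.43) and Krt19 (25.4, 406 and 349) did not. The neutrophil list summed to 6917, 16331 and 18864 FPKM there in order of time and the mesothelial list to 60.8, 687 and 703. In the mesentery these sums were 810, 450 and 59.0 for the neutrophil list and at most 0.439 for the mesothelial list, and the part of these cells in the GTPase values was not tested.

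**Figure D3:**
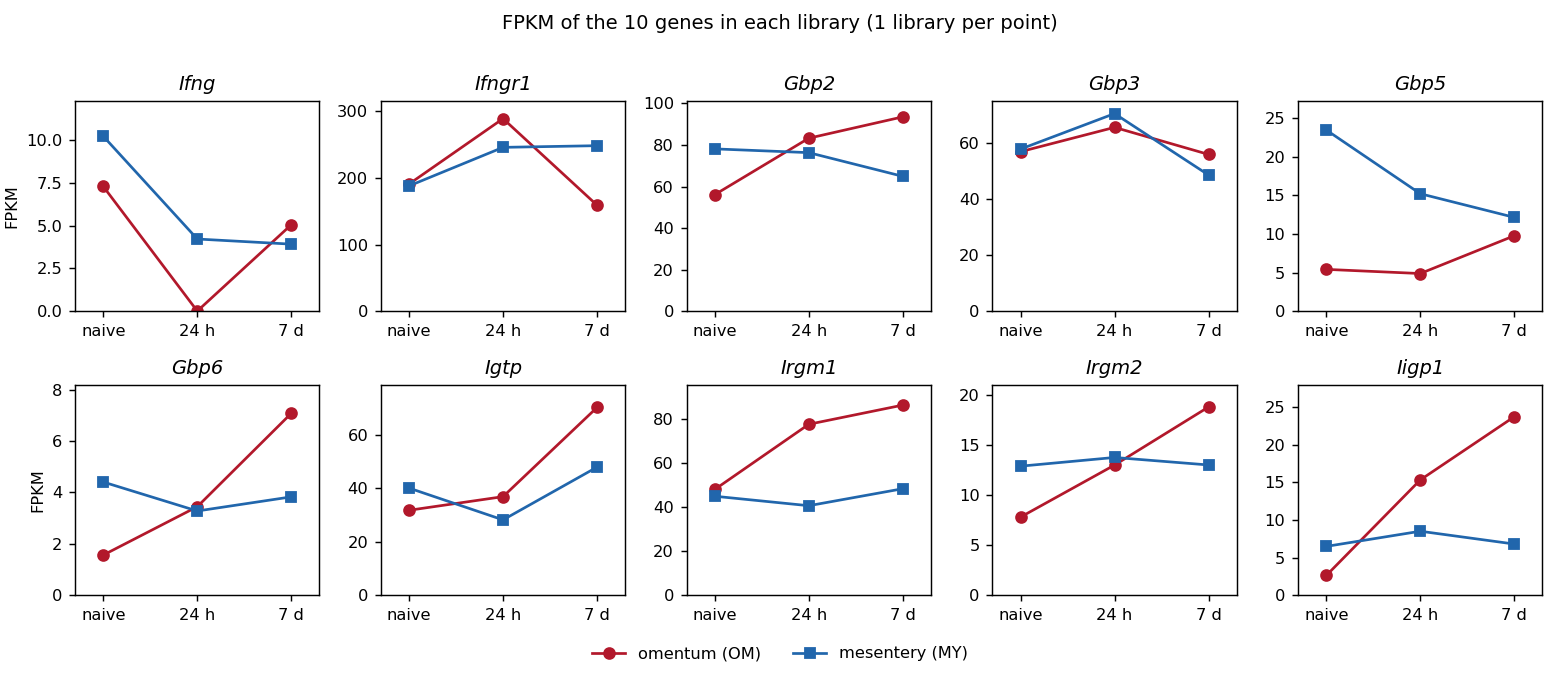
FPKM of each of the 10 genes, with the 3 times on the horizontal axis, omentum in red and mesentery in blue, and each point 1 library (vertical axes start at 0 and differ between genes). 6 panels (Gbp2, Gbp6, Igtp, Irgm1, Irgm2 and Iigp1) have their highest value in the omental library at 7 d, and Ifng has its lowest at 24 h in the omentum.

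Among the GBPs, Gbp2 was at 56.2, 83.3 and 93.6 FPKM in the omentum and at 78.2, 76.4 and 65.0 in the mesentery. Gbp3 was at 56.9, 65.6 and 56.0 FPKM in the omentum and at 57.9, 70.5 and 48.6 in the mesentery. Neither gene differed by 2-fold in any of the 9 comparisons, and their highest libraries were only 1.67 and 1.45 times their lowest. For Gbp2 the omental naive library was the lowest and the omental 7 d library the highest, whereas both tissues had the highest Gbp3 level at 24 h.

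Gbp5, which promotes inflammasome assembly, was at 5.43, 4.89 and 9.77 FPKM in the omentum and at 23.4, 15.2 and 12.1 in the mesentery. It was the 1 gene of the 10 whose tissue ranges did not overlap, with every omental library below every mesenteric one, as for 17.7% of all genes. No member had every omental library above every mesenteric one, against 16.7% of all genes. At 7 d Gbp5 differed from naive by 0.74 in omental and by -0.89 in mesenteric libraries, each short of 2-fold.

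Gbp6 was the least abundant of the GTPases in all 6 libraries, at 1.56, 3.45 and 7.08 FPKM in the omentum and at 4.41, 3.28 and 3.83 in the mesentery. The omental libraries spanned the whole range of the gene, and the mesenteric ones lay within it. The value is uncertain, since 71.4% of the 75-base windows of its coding transcripts occur also in Gbp4, Gbp8, Gbp9, Gbp10 or Gbp11, and fragments of such stretches could have been assigned to any of them. This share was at most 5.70% for each of the other 9 genes (Igtp, with Irgm2), and 0 for Ifng, Ifngr1, Irgm1 and Iigp1.

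Of the regulatory IRGs, Igtp was at 31.8, 36.9 and 70.3 FPKM in the omentum and at 40.1, 28.2 and 47.9 in the mesentery. Irgm1 was at 47.9, 77.4 and 86.1 FPKM in the omentum and at 44.8, 40.5 and 48.2 in the mesentery. Irgm2 was at 7.79, 13.0 and 18.8 FPKM in the omentum and at 12.9, 13.7 and 13.0 in the mesentery. All 3 were highest in the omentum at 7 d, and the tissue ranges of each overlapped, for Irgm1 only because the naive omental value was below that of the mesentery at 7 d. Of the adjacent genes Igtp and Irgm2, Igtp had the higher level in every library.

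Iigp1, the effector, had the widest range among the GTPases, with a highest level 9.10 times the lowest. It was at 2.61, 15.3 and 23.8 FPKM in the omentum and at 6.49, 8.51 and 6.80 in the mesentery. The naive omental library was the lowest of all 6, and both omental libraries after injection were above all mesenteric ones.

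At 24 h in the omentum, 1 of the 8 GTPases (Iigp1, by 2.18) was at least 2-fold higher than naive and none was lower, against 11.9% and 6.45% of all genes. The median of the 8 was 0.61 and that of all genes 0.00, and 7 of 8 differences were above 0. At 7 d, 4 of the 8 were at least 2-fold higher than naive, Iigp1 by 2.78, Gbp6 by 1.66, Irgm2 by 1.17 and Igtp by 1.12, and none was lower. With a pseudocount of 5, Gbp6 (0.88) and Irgm2 (0.90) were short of 2-fold. Over all genes the shares were 11.0% higher and 1.96% lower, and the medians were 0.98 for the GTPases and 0.00 for all genes. Both comparisons use the same naive library. From 24 h to 7 d none of the 8 passed 2-fold in either direction, with differences of -0.23 to 0.91 and a median of 0.55, where 7.03% of all genes were higher and 4.52% lower.

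In the mesentery, none of the 8 GTPases passed 2-fold in any comparison of times. At 24 h the differences from naive ran from -0.59 (Gbp5) to 0.34 (Iigp1) with a median of -0.09, and 2.80% of all genes were higher and 1.52% lower. At 7 d they ran from -0.89 (Gbp5) to 0.25 (Igtp), and 0.498% of all genes were higher and 2.29% lower. From 24 h to 7 d the differences ran from -0.53 (Gbp3) to 0.75 (Igtp), and 1.84% of all genes were higher and 3.54% lower. The difference between the tissues in these responses was not tested, as each rests on 2 libraries.

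Between tissues, 3 of the 8 GTPases were at least 2-fold lower in the naive omentum than in the naive mesentery, and none was higher. These were Gbp5 (-1.93), Gbp6 (-1.08) and Iigp1 (-1.05), the last 2 just past the threshold and short of it with a pseudocount of 5 (-0.52 and -0.59), while 8.05% of all genes were lower and 8.18% higher. At 24 h only Gbp5 (-1.46) was lower and none was higher, against 10.2% and 13.9% of all genes, and Ifng was lower by 2.35 on the log2 scale. At 7 d only Iigp1 (1.67) was higher and none was lower, against 14.1% and 4.99%. The median of the 8 was -0.56 in naive animals, 0.09 at 24 h and 0.53 at 7 d. At 24 h this median became -0.20 when each library was scaled to an FPKM sum of 1000000.

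As deposited, the median of all genes was at most 0.05 from 0 in each comparison. After rescaling to that sum it was -0.16 at 24 h and 0.13 at 7 d against naive in the omentum, 0.36 from 24 h to 7 d, and -0.19 (naive) and -0.27 (24 h) between tissues, over the 13852 genes that then passed the filter. It also moved the split of all genes into higher and lower in 6 comparisons. After it the shares were 10.3% and 10.1% at 24 h against naive in the omentum, and 13.5% and 2.87% from 24 h to 7 d. In the mesentery they were 2.71% and 2.81% at 24 h against naive, and 3.05% and 3.55% from 24 h to 7 d. Between tissues they were 7.52% and 12.2% in naive animals, and 11.3% and 16.6% at 24 h. Of the 10 genes, Gbp2, Gbp6 and Ifngr1 (24 h between tissues), Irgm1 and Ifngr1 (naive, between tissues), Gbp3 (7 d against naive and against 24 h in the omentum) and Irgm2 (all 3 comparisons within the mesentery) changed sign, all with differences under 0.24 in size as deposited.

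**Figure D4:**
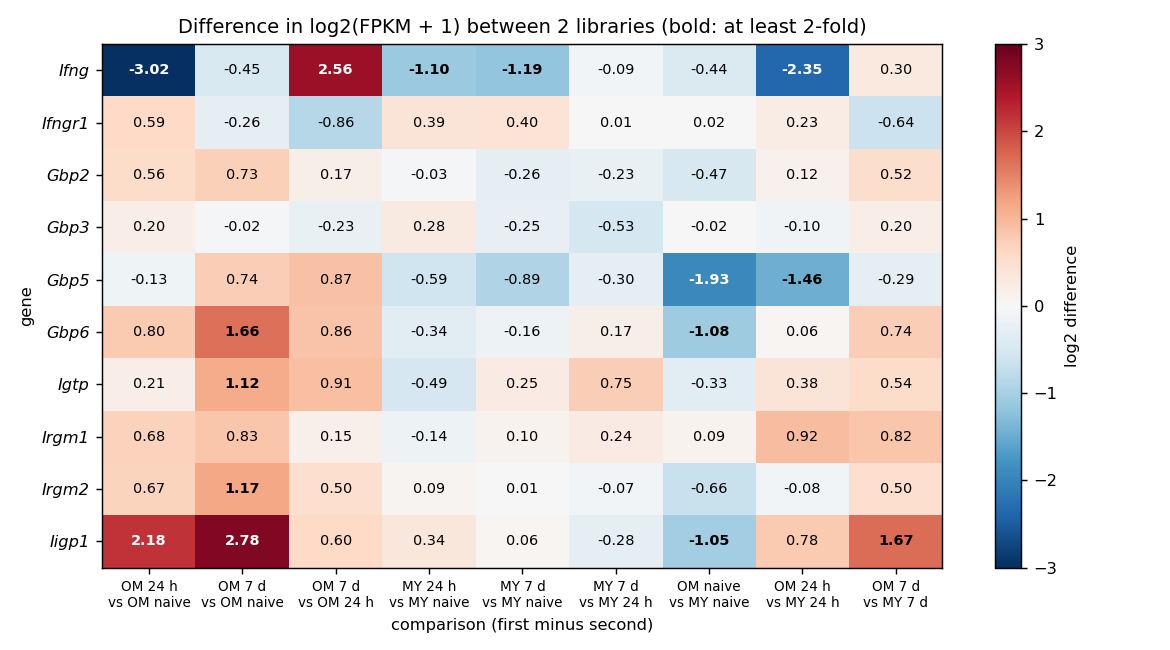
Difference in log2(FPKM + 1) for each of the 10 genes (rows) in each of the 9 comparisons (columns, first library minus second), red for higher and blue for lower, with differences of at least 2-fold in bold. The GTPase rows have bold red cells in the comparisons of the omentum with its naive library and for Iigp1 between tissues at 7 d. They have bold blue cells between tissues for Gbp5, Gbp6 and Iigp1 in naive animals and for Gbp5 at 24 h. No GTPase cell is bold in the comparisons within the mesentery.

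Other members of the GTPase families were counted from lists that held 8 and 12 further names, of which 19 were in the table and 15 passed the filter. For GBPs outside the 8, 6 of 7 in the table passed, and 4 of these were lower by at least 2-fold in the naive omentum than in the naive mesentery (Gbp2b, Gbp4, Gbp8 and Gbp9). At 24 h 5 of 6 were lower and at 7 d 2 of 6, and none was higher at any time. Over all genes, 8.05% were lower in naive animals, 10.2% at 24 h and 4.99% at 7 d, and 8.18%, 13.9% and 14.1% were higher. Gbp2b was at 8.69, 11.6 and 10.4 FPKM in the omentum and at 63.8, 133 and 79.7 in the mesentery. Gbp8 was at 4.76, 7.17 and 6.82 FPKM in the omentum and at 51.0, 46.9 and 27.8 in the mesentery. Both were thus lower in every omental than in every mesenteric library, as Gbp5 was, while the tissue ranges of Gbp2 and Gbp3 overlapped.

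Gbp4 was at 5.40, 4.09 and 12.6 FPKM in the omentum and at 26.6, 22.6 and 15.0 in the mesentery. Gbp7 was at 23.1, 13.7 and 18.03 FPKM in the omentum and at 25.5, 38.1 and 23.0 in the mesentery. Gbp4 was the 1 gene of the 6 at least 2-fold higher than naive in the omentum at 7 d, none was at 24 h, and Gbp2b was the 1 gene higher in the mesentery at 24 h. The shares of all genes higher in these comparisons were 11.0%, 11.9% and 2.80%, in that order. In all, 4 of the 15 other GTPases had every omental library below every mesenteric one (Gbp2b, Gbp4, Gbp8 and Gbp9) and 1 had every one above (Irgq), against 17.7% and 16.7% of all genes. The levels of Gbp4, Gbp8 and Gbp9 share the uncertainty of Gbp6.

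**Figure D5:**
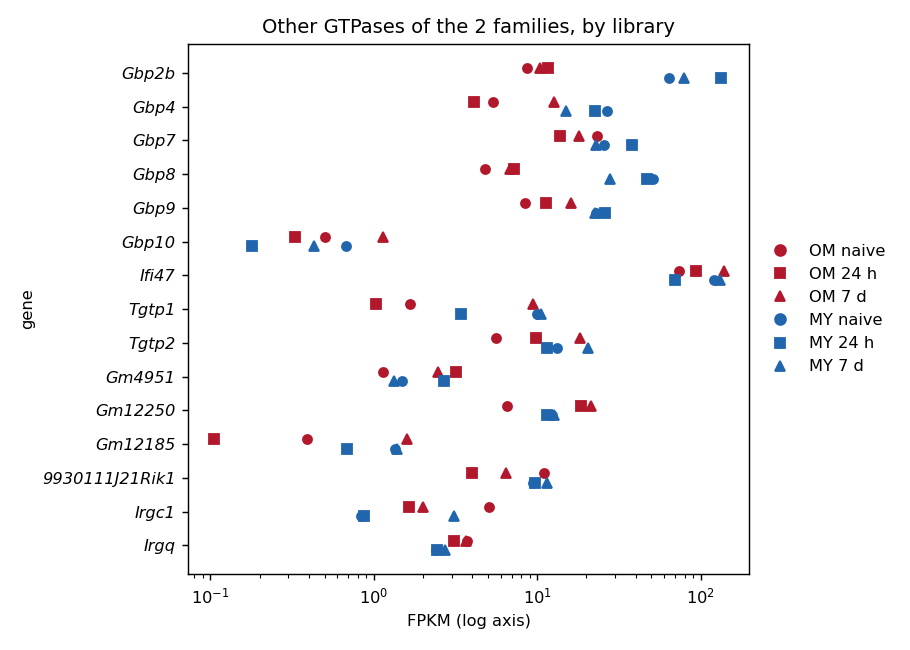
FPKM (log axis) of the 15 further GTPases that passed the filter, 1 symbol per library, with omentum in red, mesentery in blue and symbol shapes for the times. Gbp2b, Gbp4, Gbp8 and Gbp9 have all red symbols to the left of all blue ones, and Irgq has all red symbols to the right.

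Of 12 other IRGs and very large GTPases, 9 passed the filter. In the omentum 1 was higher and 2 were lower at 24 h, and 3 were higher (Tgtp1, Tgtp2 and Gm12250) and 1 was lower (Irgc1) at 7 d, with a median of 0.90 at 7 d. The shares over all genes were 11.9% higher and 6.45% lower at 24 h, and 11.0% and 1.96% at 7 d. Gm12250 was at 6.58, 18.5 and 21.3 FPKM in the omentum and at 12.4, 11.5 and 12.7 in the mesentery. Tgtp2 was at 5.63, 9.89 and 18.3 FPKM in the omentum and at 13.2, 11.4 and 20.6 in the mesentery. Gm12250 resembled Iigp1 in being lowest in the naive omentum and above all mesenteric libraries after injection, whereas Tgtp2 was highest in the mesentery at 7 d. Tgtp1 was at 1.68, 1.03 and 9.49 FPKM in the omentum and at 10.05, 3.41 and 10.6 in the mesentery. Fragments of Tgtp1 and Tgtp2 may not be separable, since they are near-identical copies. The uncharacterised 9930111J21Rik1 was at 11.0, 3.998 and 6.49 FPKM in the omentum and at 9.44, 9.74 and 11.5 in the mesentery, the opposite order to Iigp1 at 24 h in the omentum. In the mesentery 0 of the 9 were higher and 1 was lower at 24 h, and 1 was higher and 0 were lower at 7 d. There 2.80% of all genes were higher and 1.52% lower at 24 h, and 0.498% and 2.29% at 7 d.

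Genes that drive interferon-gamma production were counted in a list of 12 inducers, receptors and transcription factors. In the omentum at 24 h, 5 were at least 2-fold lower (Il12rb1, Il12rb2, Stat4, Tbx21 and Eomes), 1 was higher (Il27), and the list median was -0.94, where 6.45% of all genes were lower and 11.9% higher. From 24 h to 7 d 6 of the 12 were higher, and at 7 d 2 were higher than naive (Il12b and Il27) and none was lower. Over all genes 7.03% were higher from 24 h to 7 d, and 11.0% were higher and 1.96% lower at 7 d against naive. Tbx21, the T-bet factor that activates Ifng transcription, was at 17.5, 1.57 and 16.4 FPKM in the omentum and at 75.4, 36.5 and 35.6 in the mesentery. Eomes, its relative in NK cells, was at 5.73, 0.233 and 3.62 FPKM in the omentum and at 23.9, 11.4 and 8.004 in the mesentery. Both followed the order of the omental libraries seen for Ifng.

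Stat4, which carries the interleukin-12 signal, was at 17.3, 7.72 and 12.2 FPKM in the omentum and at 56.2, 52.7 and 57.3 in the mesentery. Il18rap, a chain of the interleukin-18 receptor, was at 4.18, 1.77 and 4.38 FPKM in the omentum and at 15.0, 15.7 and 9.94 in the mesentery. In the mesentery Tbx21 and Eomes were the 2 genes of the 12 that fell at both 24 h and 7 d, as Ifng did. At these times 1.52% and 2.29% of all genes fell there. Between tissues 8 of the 12 were lower in the omentum in naive animals and 8 at 24 h, and 5 were at 7 d, when 1 was higher (Il12b). Over all genes 8.05%, 10.2% and 4.99% were lower in these comparisons, and 14.1% were higher at 7 d. Tbx21, Eomes, Stat4 and Il18rap are expressed in NK cells and T cells, whose markers are given above, whereas interleukins of the list such as Il12b and Il27 are products of macrophages and dendritic cells. The part of these cells in the values was not tested.

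Of 25 other genes known as targets of interferon-gamma, 24 passed the filter. In the omentum 5 were at least 2-fold higher and 1 was lower at 24 h among the 21 above 0 in both libraries, and 4 were higher and none was lower at 7 d among 22. Over all genes 11.9% were higher and 6.45% lower at 24 h, and 11.0% and 1.96% at 7 d. In the mesentery none passed 2-fold at 24 h, and at 7 d none was higher and 2 of 23 were lower. Over all genes 2.80% were higher and 1.52% lower there at 24 h, and 0.498% and 2.29% at 7 d. Cxcl10, a chemokine that attracts T cells, was at 12.1, 124 and 116 FPKM in the omentum and at 35.1, 21.2 and 13.9 in the mesentery. Fcgr1, the high-affinity receptor for IgG, was at 7.38, 66.0 and 15.0 FPKM in the omentum and at 3.92, 5.87 and 3.65 in the mesentery. Both were at least 2-fold higher than naive in the omentum at 24 h, and at 7 d Cxcl10 was and Fcgr1 was not.

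Serping1, the C1 inhibitor, was at 59.8, 11.8 and 227 FPKM in the omentum and at 1.31, 1.14 and 1.27 in the mesentery. Upp1, a uridine phosphorylase, was at 3.99, 13.6 and 4.19 FPKM in the omentum and at 2.75, 1.54 and 3.00 in the mesentery. Serping1 is also a product of fibroblasts, whose 6 markers summed to 345, 222 and 1190 FPKM in the omental libraries in order of time and to at most 3.10 in the mesentery. The 9 macrophage genes, which include Fcgr1, summed to 1684, 9690 and 1028 FPKM in the omentum and to 987, 2356 and 1123 in the mesentery, so that their sum was highest at 24 h in both tissues, and their part in these values was not tested. Between tissues, among the 22, 22 and 23 targets above 0 in both libraries, 5, 8 and 4 were higher in the omentum in naive animals, at 24 h and at 7 d, and 1 was lower each time. The shares over all genes were those given above for the tissue comparisons. Ido1, an enzyme of tryptophan breakdown, was outside the counts in naive animals and at 24 h, since it was listed at 0 in both of these omental libraries, against 9.64 and 8.39 FPKM in the mesentery.

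Type I interferon acts on many of the same genes, and a list of 12 ligands, receptors and targets was counted beside it. The ligands Ifnb1 and Ifna4 were listed at 0 in all 6 libraries, and the other 10 genes passed the filter. In the omentum 7 of the 10 were at least 2-fold higher at 24 h with a median of 1.45, and 6 of the 10 at 7 d with a median of 1.06, against 11.9% and 11.0% of all genes, and none was lower. The shares of all genes lower in the omentum were 6.45% at 24 h and 1.96% at 7 d. In the mesentery none was higher, while 1 fell at 24 h and 3 fell at 7 d, as 1.52% and 2.29% of all genes did. The shares of all genes higher there were 2.80% and 0.498%. In naive animals 6 of the 10 were lower in the omentum than in the mesentery, with a median of -1.23, as 3 of the 8 GTPases and 8.05% of all genes were.

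Irf7, a regulator of type I interferon genes, was at 27.9, 111 and 61.2 FPKM in the omentum and at 74.5, 58.2 and 45.9 in the mesentery. Ifit1, an antiviral protein that binds RNA, was at 3.36, 11.2 and 12.9 FPKM in the omentum and at 9.53, 3.76 and 4.15 in the mesentery. Both had a higher level in each omental library after injection than in the naive one, and a lower level in each mesenteric one. Mx1, an antiviral GTPase of the dynamin family, was at 1.47, 2.35 and 3.06 FPKM in the omentum and at 22.7, 30.3 and 5.10 in the mesentery. Usp18, which removes ISG15 and dampens the receptor, was at 12.7, 23.5 and 19.2 FPKM in the omentum and at 66.0, 68.4 and 41.5 in the mesentery. Mx1 and Usp18 were lower in every omental than in every mesenteric library, as were Gbp5 and Gbp2b.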

How the data were processed

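Macrophages (CD45+CD11b+F4/80+) were sorted from dissociated omentum and mesentery, and the deposited values hold 1 column for each of 6 groups. The deposited values are FPKM per gene, which the authors made with STAR 2.4.2a alignment to mm9 and Cufflinks, after FastQC 0.11.4. The study's methods give a range of read totals over the samples. The total of each library and the strand setting are not given in the sources used here, and FPKM steps gave a rough relative depth only.

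Values were used as deposited. Differences were taken on log2(FPKM + 1), among genes whose FPKM reached 1 in any library, and called at 2-fold. With 1 library per group no test was run and no p-value is given. The members and the lists were chosen with earlier results of these data known. All 10 members are named. Of each pathway list the text names up to 4 genes that reached an FPKM of 10 in any library and were called (largest difference first), and all called genes of the receptor list. Single markers of cell types, such as Ncr1, Gzmb and Cd3e, were named by no such rule. Other names in the text are those behind counts of 5 or fewer, named after their values were seen. The 5 genes most like Ifng and most like the GTPase mean were ranked by root mean square difference of centred profiles. Gene positions are from GENCODE M1 on NCBIM37, and promoter sequences are from RefSeq (a GRCm38.p6 table), placed on NCBIM37 by exact match.

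Alternatives were pseudocounts of 0.1 and 5, no filter, a filter of FPKM at least 1 in every library, median-ratio scaling, scaling to a sum of 1000000, and the 24 h library as baseline. The scripts were tested on simulated data. Computations used pandas 2.3.3 and numpy 2.4.6 under Python 3.11.15.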

Additional observations from a re-analysis of the deposited data

Results flagged for a closer look

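Among 34 genes, 8 gene and time pairs differed from naive by at least 1.5-fold in opposite directions in the omentum and the mesentery. The 34 were the 10 members and up to 4 called genes of each pathway list, those with the largest differences. This choice favours such pairs. The share of all genes with such opposite changes was not computed, so the count is not set against one. The difference between the tissues was not tested in any of the 8 pairs, as each value compares 1 library with 1 library. Gbp5 was the only member, with 0.74 in omental and -0.89 in mesenteric libraries at 7 d on the log2(FPKM + 1) scale. Gbp4 differed at 7 d by 1.09 in omental and by -0.79 in mesenteric libraries. Cxcl10 differed by 3.25 and -0.70 at 24 h and by 3.16 and -1.28 at 7 d, in the omentum and the mesentery. Ifit1 differed by 1.49 and -1.15 at 24 h and by 1.68 and -1.03 at 7 d. Mx1 differed by 0.72 and -1.96 and Irf7 by 1.10 and -0.69, both at 7 d.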

How the results depend on the processing

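Of 810 recomputed values, 751 moved by less than 1.5-fold, 59 moved by more, and no called value changed sign. Median-ratio scaling and dropping the filter moved none of 135 each by that much. Dropping the filter could change only the shares of all genes, since all 10 members passed it. The filter on every library likewise could not change the values of Ifngr1 or the GTPases, which reached an FPKM of 1 in every library. Values fixed in this way are among the 751 and say nothing about stability. With a pseudocount of 0.1, 2 GTPases were at least 2-fold higher at 24 h in the omentum and 1 from 24 h to 7 d, and Ifng differed by -5.92 (24 h against naive), 5.40 (7 d against 24 h) and -5.14 (24 h between tissues). With a pseudocount of 5, 2 GTPases were higher at 7 d in the omentum and 1 was lower in the naive omentum than in the naive mesentery, and the Ifng differences were -1.29, 1.0 and -0.88. Scaled to a sum of 1000000, 3 GTPases were higher from 24 h to 7 d in the omentum, and the Ifng differences were -3.62, 3.28 and -3.02. Against the 24 h library, 0 GTPases were higher at 7 d in the omentum, and Ifng at 7 d differed by 2.56 in omental and -0.085 in mesenteric libraries. The share of all genes past 2-fold ran from 0.498% to 14.1% as reported, from 1.77% to 18% with a pseudocount of 0.1, from 0.222% to 7.49% with 5, from 0.343% to 9.56% with FPKM at least 1 in every library, and from 0.671% to 16.6% scaled to the sum. That filter removes Ifng, so it gives no Ifng value. No paired analysis was possible because each tissue and time has 1 library, so no 2 groups share more than 1 replicate number. With 1 column per group, no value separates injection from differences between pools, and Ifng at 24 h in the omentum is limited by about 1 fragment.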
